A study of Drosophila melanogaster with 6 samples.

Results

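The sarcomere is the contractile unit of muscle, and the data below follow the mRNAs of 10 genes that encode parts of it through 6 libraries of ribosome-bound RNA from *Drosophila* heads. The genes were chosen by name as components of the thick filament (*Mhc*, *Mlc1*, *Mlc2*), of the thin filament (*Act57B*, *Act88F*, *wupA*, *up*, *Tm2*) and of the connecting filament that ties the thick filament to the Z-disc (*sls*, *bt*). All 10 were found among the 17489 genes of the count files, and all 10 passed the filter on low counts. No measured value entered the choice of the rule, although earlier results of these data were known when the genes were picked.

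Translating mRNA affinity purification (TRAP) pulls down ribosomes through a tagged subunit, and the RNA bound to them is sequenced. The tag here was on Rpl3, expressed under the sweet-taste receptor driver *Gr5a* (*Gr5a>UAS-Rpl3-3XFLAG*). Male flies with this genotype ate a control diet of 5% sucrose (CD + OSMI) or a sugar diet of 30% sucrose (SD + OSMI) from day 5 to day 12. Both diets carried 10 µM OSMI-1, which inhibits the nutrient sensor OGT, dissolved in 10% DMSO, so that every group was exposed to the inhibitor. A replicate was a pool of 300 heads. Replicates 1 to 3 ate CD + OSMI, and replicates 4 to 6 ate SD + OSMI. The comparison asks which mRNAs differ between a sugar and a control diet while OGT activity is blocked. Because whole heads were lysed, the pull-down is the only step that separates the *Gr5a+* cells from other tissue in the lysate. The muscles of the proboscis, the pharynx and the antennae are part of that tissue. No input libraries were used here.

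In striated muscle, myosin heads on the thick filament pull on actin in the thin filament. Calcium released into the cell binds troponin, which shifts tropomyosin along the actin and exposes the sites for myosin. Insect muscles come in a fibrillar type, which powers flight, and a tubular type, which moves the legs, the body wall and the mouthparts, and the types use different isoforms of actin and troponin C. The giant proteins of the connecting filament give insect muscle much of its passive stiffness.

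The total count per library was 13324513 to 16122009, and counts were given as CPM, counts scaled to a common library size with TMM factors. Within a diet, the chi-square per degree of freedom between replicates was 10.6 to 33.4, where sampling noise alone gives about 1. The p-values set the diet difference against an estimate of the spread between these replicates, which draws on all tested genes. A filter of at least 10 counts in 3 or more libraries left 11915 genes for edgeR's quasi-likelihood test, and a gene was called at a Benjamini-Hochberg adjusted p under 0.1. A fold change above 1, or a positive log2 fold change, means more RNA on the sugar diet. Genes of the mitochondrial genome took 1.19 to 1.54% of the counts in replicates 1 to 5 and 3.16% in replicate 6. Markers of the labelled cells were scarce in these counts. For this experiment, the study reports enrichment of *Gr5a*, *Gr64f* and *Gr64a* in the pull-down over input, and depletion of the bitter receptors *Gr66a* and *Gr32a*. That comparison was not repeated here. The 9 sweet receptor genes summed to 2.67 to 5.74 CPM on CD + OSMI and 3.08 to 5.19 CPM on SD + OSMI, and 4 of them (*Gr64b*, *Gr64c*, *Gr64d*, *Gr64e*) were at 0 in every library. The 4 sweet receptor genes that passed the filter had 0 calls in edgeR and DESeq2, and 0 at an unadjusted p under 0.05.

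The mRNAs of the contractile apparatus were plentiful in these libraries. Summed over the 10 genes, the level was 7900, 7484 and 9722 CPM in the CD + OSMI replicates and 9325, 9533 and 8270 CPM in the SD + OSMI replicates. The means were 8369 ± 1191 CPM (SD, n = 3) and 9043 ± 677 CPM (SD, n = 3), and the diets overlapped. *sls*, *bt* and *Mhc*, the longest of the genes, held 84.4 to 89.03% of these counts in each library. In the lysate of a whole head, fewer cells of a type and less RNA per cell cannot be told apart, which holds for every difference below.

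Levels of different genes were compared per kilobase, as TPM from merged exon lengths, over the 6 libraries. *Mhc*, the muscle myosin heavy chain, had the highest mean at 552 TPM (range 471 to 635), followed by the actin gene *Act57B* at 490 TPM (393 to 588) and the regulatory light chain gene *Mlc2* at 366 TPM (325 to 443). These overlapped with their neighbours in the order, and all 3 genes lay above the next one, *up*, which encodes troponin T, at 235 TPM (200 to 261). The kinase-bearing giant protein gene *bt* (projectin) was at 212 TPM, *sls* (sallimus, also called kettin) at 183 TPM, the alkali light chain gene *Mlc1* at 155 TPM, the troponin I gene *wupA* at 119 TPM and the tropomyosin gene *Tm2* at 92.9 TPM. From *up* to *Tm2*, each gene overlapped with the next in the order. *Act88F*, the actin of the fibrillar flight muscle, stood far below at 4.94 TPM (1.27 to 10.7).

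**Figure D1:**
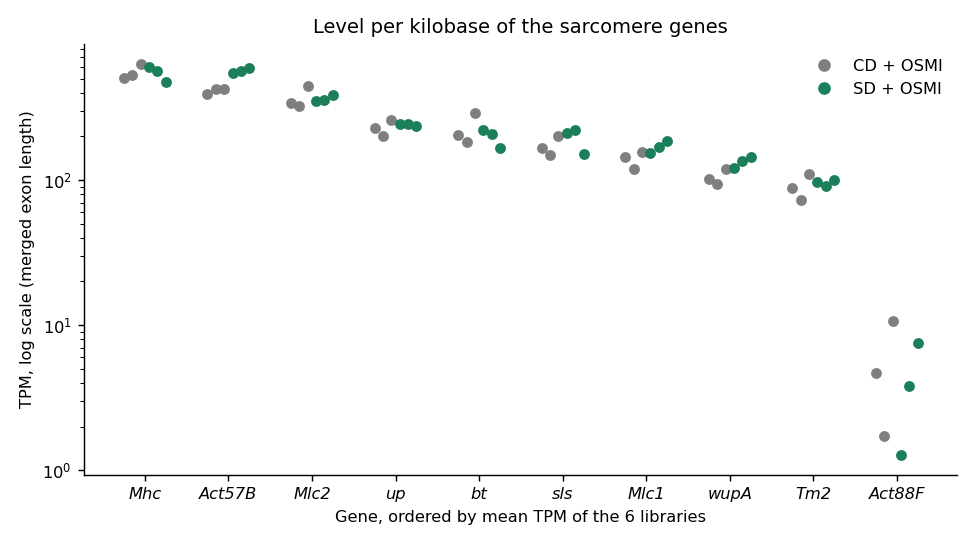
Level per kilobase (TPM from merged exon length, log scale) of the 10 sarcomere genes in each of the 6 libraries, one point per library, with genes ordered by their mean. *Mhc* leads with a mean of 552 TPM, and *Act88F* is last at 4.94 TPM, below every library of every other gene.

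Among the 17248 genes with a known length, whether or not they passed the filter, these means put *Act88F* at percentile 41.8. The other 9 genes lay between percentiles 89.9 and 98.9. Genes with few or no counts are part of this ranking. The order depends on the length used. Per coding length, *Mlc2* came first at 847 TPM, *Act57B* second at 507 TPM and *Mhc* next at 462 TPM, and with the longest transcript only *Mlc1* (148 TPM) and *wupA* (167 TPM) changed places. *Act88F* was last under each length.

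Each gene was compared between the diets. On SD + OSMI, *Act57B* and *wupA* were higher and none of the 10 was lower at an adjusted p under 0.1 in edgeR, while 9.09% of all 11915 tested genes were called, 6.91% higher and 2.18% lower. Without adjustment, 3 of the 10 genes had a p under 0.05, *Act57B*, *wupA* and *Mlc1*, and 0 of these were lower, beside 21.4% of all tested genes (14.5% higher and 6.85% lower). DESeq2 called the same 2 genes, against 9.16% of all genes higher. The fold change was positive for 8 genes and negative for 2, with a median log2 fold change of 0.15 (range -0.34 to 0.53) against -0.0027 over all genes. This median rests on single libraries, since it was 0.046 without replicate 2, 0.078 without replicate 6 and 0.33 without replicate 3. Replicates of the diets did not overlap for 3 genes, *Act57B*, *wupA* and *Mlc1*, all higher on SD + OSMI, where 24.8% of all genes did not overlap, 14.5% with SD + OSMI higher and 10.2% with it lower. Practical equivalence was tested against the null that a gene changed by 1.5-fold or more, and 6 genes (*Mhc*, *Mlc2*, *up*, *Tm2*, *sls*, *bt*) passed at q under 0.05, beside 47.1% of all genes. *Mlc1* and *Act88F* were neither called changed nor called equivalent.

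**Figure D2:**
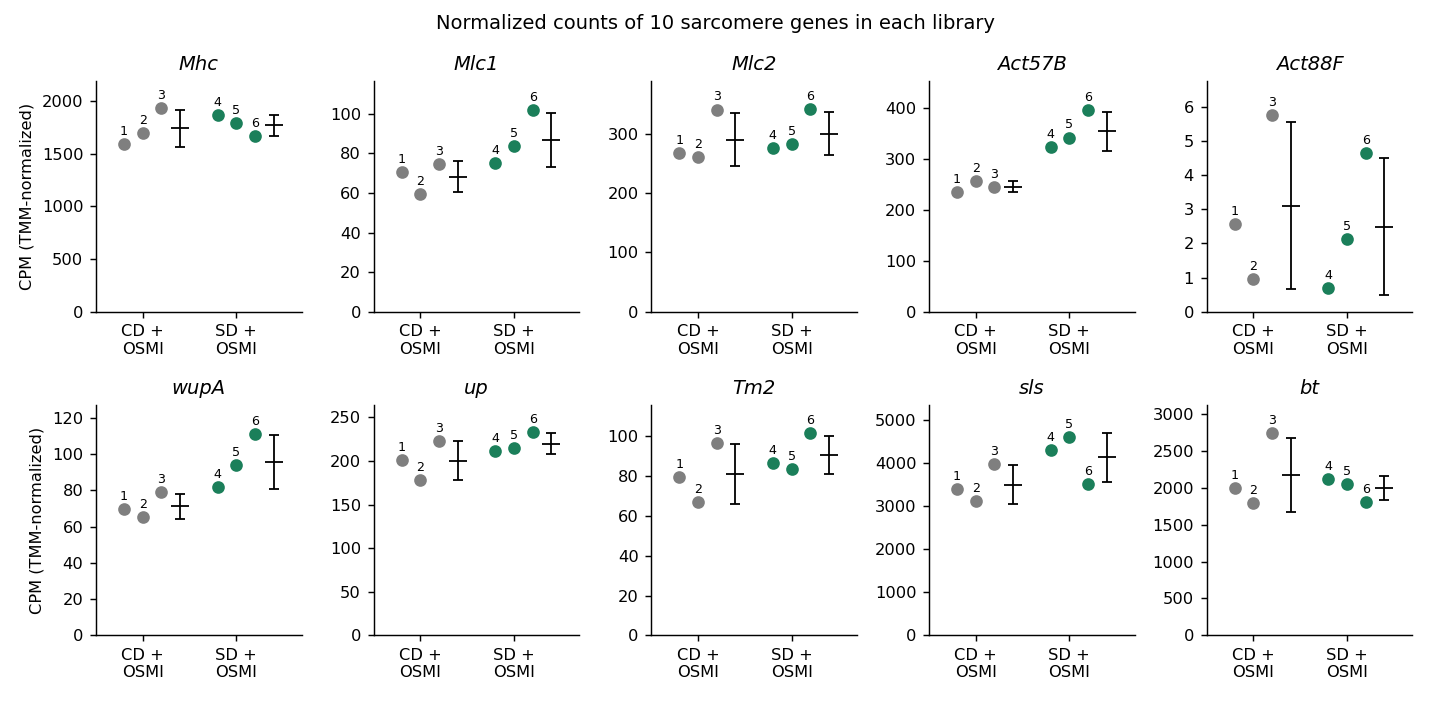
TMM-normalized CPM of the 10 sarcomere genes, with a point for each library (numbered 1 to 3 on CD + OSMI, 4 to 6 on SD + OSMI) and the mean with its SD beside the points of each diet. The SD + OSMI points of *Act57B* (324 to 397 CPM), *wupA* (81.9 to 111 CPM) and *Mlc1* (74.9 to 102 CPM) lie above all CD + OSMI points of the same gene.

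**Figure D3:**
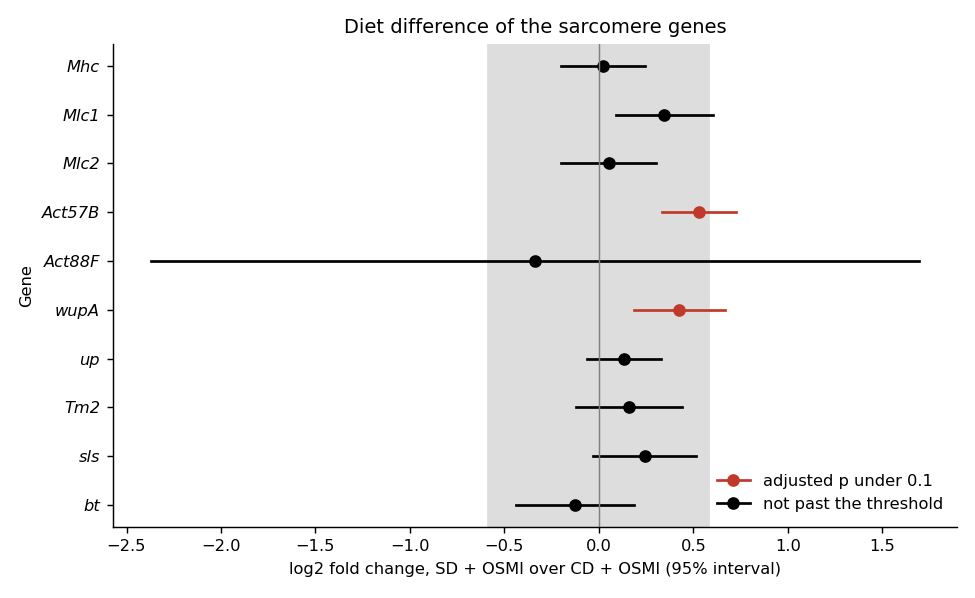
Log2 fold change of each sarcomere gene, SD + OSMI over CD + OSMI, from edgeR with its 95% interval; red marks an adjusted p under 0.1 and the grey band spans a 1.5-fold change in either direction. Only the intervals of *Act57B*, *wupA* and *Mlc1* leave out 0, and that of *Act88F* runs from -2.37 to 1.69.

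The thick filament carries the motor. *Mhc* is a single gene whose alternative exons supply every muscle myosin heavy chain of the fly (2L:16766566-16788766, plus strand, BDGP6, protein coding). It was at 1596, 1700 and 1938 CPM on CD + OSMI and at 1864, 1789 and 1667 CPM on SD + OSMI. Neither diet stood apart, since replicate 3 held the highest and replicate 1 the lowest value. The log2 fold change was 0.024 (SE 0.10, adjusted p = 0.926, edgeR), and the 95% interval of the fold change ran from 0.872 to 1.19. The counts are per gene and do not separate the *Mhc* isoforms.

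*Mlc2* (3R:30171438-30174551, minus strand), the light chain that is phosphorylated on the myosin neck, was at 268, 261 and 341 CPM on CD + OSMI and 276, 284 and 343 CPM on SD + OSMI. Replicates 3 and 6 were the high libraries, 1 from each diet, and the log2 fold change was 0.051 (SE 0.12, adjusted p = 0.848, edgeR).

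*Mlc1* (3R:27657078-27660177, minus strand), the alkali light chain, was at 70.6, 59.5 and 74.8 CPM on CD + OSMI and at 74.9, 83.7 and 102 CPM on SD + OSMI. All SD + OSMI values were above all CD + OSMI values, but replicate 4 exceeded replicate 3 by a small margin. The means were 68.3 ± 7.88 CPM and 86.8 ± 13.8 CPM (SD, n = 3 each), and the log2 fold change of 0.35 (SE 0.12, adjusted p = 0.118, edgeR) missed the threshold. It passed without replicate 4 (adjusted p = 0.0202) and with no filter on low counts (adjusted p = 0.0984), over a range of 0.0202 to 0.412 among all alternatives tried.

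The thin filament held both of the genes that passed the test. Its 5 genes summed to 587, 567 and 650 CPM on CD + OSMI and 704, 737 and 848 CPM on SD + OSMI, with no overlap between the diets. *Act57B* carries this separation: without it, the other 4 genes summed to 353, 311 and 404 CPM and to 380, 395 and 451 CPM, which overlapped. The 3 thick filament genes summed to 1935, 2020 and 2354 CPM and to 2215, 2157 and 2112 CPM, and *sls* and *bt* together to 5378, 4897 and 6718 CPM and to 6406, 6639 and 5311 CPM. The thick and connecting filament sums overlapped between the diets.

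*Act57B* encodes a muscle actin of larval muscles and of adult tubular muscles (2R:20944021-20946431, plus strand). Its values were 235, 256 and 246 CPM on CD + OSMI and 324, 342 and 397 CPM on SD + OSMI. The lowest sugar diet library was well above the highest control library. The mean of 246 ± 10.7 CPM rose to 354 ± 37.9 CPM (SD, n = 3 each). This was a 1.44-fold increase (95% interval 1.26 to 1.65), 0.53 on the log2 scale (SE 0.092, adjusted p = 0.00884, edgeR). DESeq2 gave an adjusted p of 3.2e-05. *Act57B* passed the threshold in all 16 alternatives, including the 6 fits without 1 library (log2 fold change 0.44 to 0.60, adjusted p 0.000879 to 0.0676).

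*wupA* encodes troponin I, the subunit that holds the thin filament off when calcium is low (X:18105568-18116922, minus strand). It was at 69.5, 65.3 and 79.0 CPM on CD + OSMI and 81.9, 94.3 and 111 CPM on SD + OSMI. The diets were separated, by less than for *Act57B*. The mean of 71.3 ± 6.99 CPM rose to 95.8 ± 14.8 CPM (SD, n = 3 each). This was a 1.34-fold increase (95% interval 1.14 to 1.59), 0.43 on the log2 scale (SE 0.11, adjusted p = 0.0544, edgeR). The call rests on most of the libraries. Without replicate 1, 2, 5 or 6, the adjusted p was 0.101, 0.204, 0.179 and 0.252, and the log2 fold change stayed positive, from 0.31 without replicate 6 to 0.54 without replicate 4.

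The remaining partners of the thin filament showed no called difference. *up*, the troponin T that anchors the complex to tropomyosin (X:13593474-13602578, minus strand), was at 201, 178 and 223 CPM on CD + OSMI and at 211, 215 and 233 CPM on SD + OSMI (log2 fold change 0.13, SE 0.093, adjusted p = 0.449, edgeR). *Tm2*, a tropomyosin that lies along the actin (3R:15310193-15315197, plus strand), was at 79.7, 66.8 and 96.8 CPM and at 86.4, 83.7 and 102 CPM (log2 fold change 0.16, SE 0.13, adjusted p = 0.525, edgeR). In both genes replicate 2 was lowest and replicate 6 highest, and the diets overlapped because replicate 3 was also high.

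*Act88F* (3R:15439969-15442177, plus strand) was counted only 40, 14 and 89 times in the CD + OSMI libraries and 11, 34 and 62 times in the SD + OSMI libraries. This gave 2.58, 0.960 and 5.77 CPM and 0.696, 2.13 and 4.66 CPM. The counting error alone was smaller than these differences, since the exact Poisson 95% interval was 4.63 to 7.10 CPM in replicate 3 and 0.525 to 1.61 CPM in replicate 2 of the same diet. A diet difference was not detectable at this spread (log2 fold change -0.34, SE 0.83, adjusted p = 0.864, edgeR), and the interval of the fold change ran from 0.193 to 3.24. Without replicate 3 the log2 fold change was 0.47 and without replicate 4 it was 0.12.

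The connecting filament genes were the longest of the 10 and had the highest counts. *sls* (3L:2039681-2115611, minus strand) was at 3382, 3105 and 3982 CPM on CD + OSMI and 4290, 4589 and 3500 CPM on SD + OSMI. Replicates 4 and 5 were above all control libraries, and replicate 6 was within them. The log2 fold change was 0.24 (SE 0.13, adjusted p = 0.299, edgeR). An antisense RNA gene, *asRNA:CR42860*, overlaps 1089 exon bases of *sls* on the opposite strand, and it was counted 200 times over the 6 libraries against 346774 for *sls*. The strand setting of the counting is not given in the sources used here.

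*bt* lies on the small chromosome 4 (4:724400-776474, plus strand). It was at 1995, 1791 and 2736 CPM on CD + OSMI and 2115, 2050 and 1811 CPM on SD + OSMI. Replicate 3 was far above the others, and the log2 fold change of -0.13 (SE 0.14, adjusted p = 0.665, edgeR) became 0.073 without it.

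The filaments are built from these proteins in set proportions, and each gene was also set against *Mhc* within a library. This removes the scaling between libraries but not a difference by gene length. The merged exons span 9058 bases in *Mhc*, 1724 in *Act57B* and 1978 in *wupA*. The ratio of *Act57B* to *Mhc* counts was 0.147, 0.151 and 0.127 on CD + OSMI and 0.174, 0.191 and 0.238 on SD + OSMI, without overlap. For *wupA* the ratio was 0.0435, 0.0384 and 0.0407 and then 0.0439, 0.0527 and 0.0668, also without overlap. The other 7 genes overlapped in this ratio, and 8.57% of all tested genes had a higher ratio to *Mhc* without overlap and 7.41% a lower one. Against *up*, whose merged exons span 2530 bases, 3 of 9 genes were higher without overlap, beside 9.17% of all tested genes higher and 13.5% lower. These were *Mlc1*, *Act57B* and *wupA*, all between 1 and 2 kb and so shorter than *up*. *Act88F* (1595 bases) and *Mlc2* (2286 bases) are also shorter than *up*, and their ratios overlapped between the diets. Their mean ratios to *up* on SD + OSMI were 0.751 and 0.944 times those on CD + OSMI.

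Replicates within a diet had a similar spread for these genes and for genes at large. The median coefficient of variation of the 10 genes was 12.2% on CD + OSMI and 11.4% on SD + OSMI, against 12.1% and 12.6% over all tested genes. Replicate 2 had the lowest value of 7 of the 10 genes. Replicate 6 had the highest value of 6 genes, and all 6 were shorter than 3 kb in merged exons. None of the 3 longer genes (*Mhc*, *bt*, *sls*) peaked there.

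This division by length was also present across all tested genes. In replicate 6, the median deviation of log2(CPM + 0.5) from the mean of the 6 libraries was 0.17 for genes under 1 kb and -0.15 for genes over 10 kb, and in replicate 5 it was 0.16 and -0.10. Replicate 2 ran the opposite way, from -0.20 to 0.15. The long sarcomere genes did not follow the trend there, with *Mhc*, *bt* and *sls* at -0.046, -0.20 and -0.28 in replicate 2. In replicate 5 they were at 0.028, -0.0082 and 0.28. The median log2 fold change was 0.16 for genes under 1 kb, 0.067 for genes of 1 to 2 kb, a class that includes *Mlc1*, *Act57B*, *wupA* and *Act88F*, and -0.12 for genes over 10 kb, such as *sls* and *bt*. With offsets that follow this trend in each library, an alternative chosen after the data were seen, *Act57B* (log2 fold change 0.47, adjusted p = 0.00533) and *wupA* (0.38, adjusted p = 0.0616) were again called by edgeR, *sls* moved to 0.43 (adjusted p = 0.232), *bt* to 0.026 and *Mlc1* to 0.26 (adjusted p = 0.145).

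**Figure D4:**
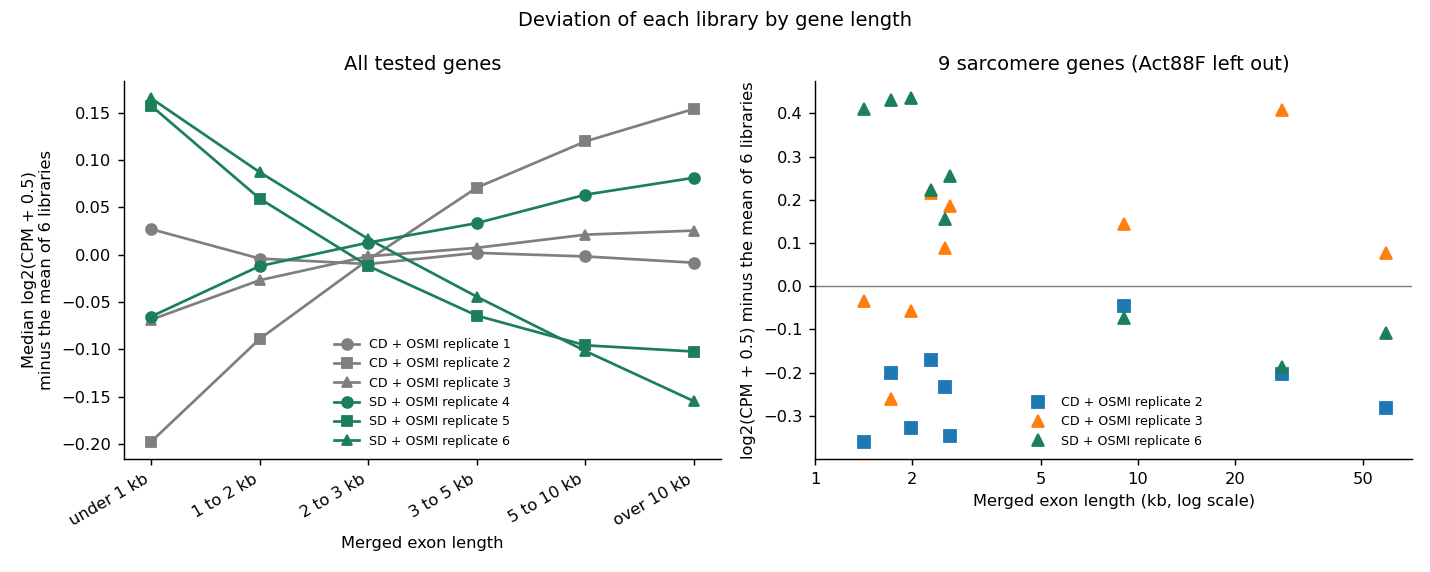
Left, median deviation of log2(CPM + 0.5) from the mean of the 6 libraries for all tested genes in 6 classes of merged exon length, with a line per library. Right, the same deviation for the sarcomere genes except *Act88F* in replicates 2, 3 and 6, against exon length on a log scale; in replicate 6 the genes under 3 kb lie above 0 and *Mhc*, *bt* and *sls* below it.

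RNA of other tissues also differed between the diets. Over all tested genes, edgeR called 6.91% higher and 2.18% lower. The testis, accessory gland and ejaculatory duct lie outside the head, although heads were the tissue collected. Whether muscle RNA from outside the head was also in the libraries was not tested. Of 23 testis markers, 11 were called higher on SD + OSMI, and their sum was 1748 to 2351 CPM on CD + OSMI and 2706 to 4078 CPM on SD + OSMI. Of 15 accessory gland and ejaculatory duct markers, 12 were higher, with sums of 68.5 to 110 CPM and 137 to 264 CPM. Of 8 tested fat body markers, 6 were lower, with sums of 9185 to 11393 CPM and 6453 to 7966 CPM. None of the genes in these lists was at 0 in all libraries.

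For the neuron list, 2 of 10 markers were called lower, with sums of 7366 to 8093 CPM on CD + OSMI and 6058 to 7472 CPM on SD + OSMI. No photoreceptor (10 genes), glia (6 genes) or hemocyte (4 genes) marker was called by edgeR, and 1 of 9 gut markers was lower. At an unadjusted p under 0.05, 1 glia and 1 hemocyte marker were lower and 0 photoreceptor markers differed, and DESeq2 called 1 glia marker. In the neuron list all 10 fold changes were negative, and 4 markers were lower at this unadjusted p and 4 in DESeq2. In the gut list 3 were lower at this p, and DESeq2 called 2 lower and 1 higher. The photoreceptor sum was 28030 to 35463 CPM and 25728 to 30708 CPM, the glia sum 1358 to 1408 CPM and 1196 to 1279 CPM, the hemocyte sum 398 to 444 CPM and 373 to 406 CPM, and the gut sum 148 to 215 CPM and 113 to 199 CPM. The part of other tissues in the higher counts of *Act57B* and *wupA* was not tested.

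*Act57B* belongs to a family of 6 actin genes with nearly identical coding regions, so reads may have been shared out between them in a way the counts do not show. It made up 18.1, 19.97 and 17.1% of all actin counts on CD + OSMI and 23.0, 23.5 and 25.4% on SD + OSMI, without overlap. The cytoplasmic actin *Act5C* held most of the others, at 836 ± 12.5 CPM and 845 ± 13.3 CPM (log2 fold change 0.017, adjusted p = 0.939, edgeR). *Act42A*, the other cytoplasmic actin, had means of 47.5 ± 9.05 CPM and 64.1 ± 8.78 CPM (SD, n = 3 per diet; log2 fold change 0.43, adjusted p = 0.126 in edgeR and 0.0601 in DESeq2).

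The muscle actins *Act87E* and *Act79B*, named here after their values were seen, reached 199 and 116 CPM in replicate 3, against 112 to 179 CPM and 41.0 to 55.6 CPM in the other libraries. Their log2 fold changes were 0.18 and -0.43 (adjusted p = 0.757 and 0.698, edgeR). Within the 4 muscle actins, the share of *Act57B* overlapped between the diets (43.4 to 62.3% on CD + OSMI, 61.9 to 63.0% on SD + OSMI), with the lowest value in replicate 3.

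The isoforms that mark muscle type were summed in CPM, over lists of unlike size. The flight muscle isoform genes *Act88F*, *fln* (flightin, which binds the myosin rod) and *TpnC4* (a troponin C) summed to 2.13 to 7.10 CPM on CD + OSMI and 1.46 to 8.12 CPM on SD + OSMI, and edgeR and DESeq2 called 0, with 0 at an unadjusted p under 0.05. The 6 isoform genes of tubular and larval muscles (*Act57B*, *Act87E*, *Act79B*, *TpnC73F*, *TpnC25D*, *TpnC47D*) summed to 419 to 582 CPM and 539 to 665 CPM, and *Act57B* was the only one called. Per kilobase, the diet means of the flight muscle genes were 2.52 to 5.70 TPM. In the tubular list *TpnC47D* (2.82 and 4.17 TPM) lay within this range. The others were higher, from 14.5 TPM for *TpnC73F* on CD + OSMI to 567 TPM for *Act57B* on SD + OSMI. The troponin C genes of this list, *TpnC73F*, *TpnC25D* and *TpnC47D*, had log2 fold changes of 0.58, 0.24 and 0.62 (adjusted p = 0.199, 0.378 and 0.507, edgeR). A further troponin C gene, *TpnC41C*, was at -0.37 (adjusted p = 0.560).

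Sarcomere genes outside the 10 gave a background for the diet difference. Of 22 further genes of the Z-disc, M-line and filaments, edgeR called 0 higher and 0 lower, beside 6.91% and 2.18% of all tested genes. Only *TpnC73F* (higher) passed an unadjusted p under 0.05, beside 21.4% of all tested genes, and DESeq2 called 0, beside 12%. The median log2 fold change was -0.012 (range -0.43 to 0.70), and 11 genes were positive and 11 negative. Of the 22, 12 were practically equivalent between the diets, beside 47.1% of all tested genes. Replicates of the diets did not overlap for 24.8% of all tested genes. *tmod*, tropomodulin, which caps the pointed end of the thin filament, was the only one of the 22 whose replicates did not overlap, at 220 ± 12.7 CPM and 194 ± 13.2 CPM (SD, n = 3 each; log2 fold change -0.18, adjusted p = 0.241, edgeR). *Actn*, the alpha-actinin of the Z-disc, was at 144 ± 32.5 CPM and 124 ± 1.89 CPM (log2 fold change -0.21, adjusted p = 0.403). The highest library for 13 of these 22 genes was replicate 3, and for 3 of them replicate 6.

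Genes that excite, fuel and regulate muscle were taken from 3 further lists. Over all tested genes, edgeR called 9.09% and DESeq2 12%, and 21.4% had an unadjusted p under 0.05 in edgeR. Of 10 tested genes for excitation and energy supply, edgeR and DESeq2 called none, and 1 was lower at an unadjusted p under 0.05, *Gpdh1*, a glycerol phosphate dehydrogenase of flight metabolism (346 ± 2.45 CPM and 305 ± 15.7 CPM, log2 fold change -0.18, adjusted p = 0.205). The glutamate receptor subunit *GluRIIC*, the calcium channel *Ca-alpha1D* and the junctophilin *jp* had log2 fold changes of 0.39, -0.17 and -0.14 (adjusted p = 0.328, 0.334 and 0.426). The median of the list was -0.13.

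Of 10 regulators of muscle genes, 1 was called higher and 0 lower by edgeR. *bru1*, the RNA-binding protein that directs splicing of sarcomere genes in fibrillar muscle, rose by 0.36 on the log2 scale (SE 0.12, adjusted p = 0.0978, edgeR), next to the threshold, with means of 156 ± 12.9 CPM and 200.3 ± 34.8 CPM (SD, n = 3 each). It was also called by DESeq2 (adjusted p = 0.0567) but not by limma-voom, with RLE factors, with a filter of at least 50 counts, with either scaling chosen after the data were seen, or in 5 of the 6 fits without 1 library. The transcription factors *Cf2* and *ewg* were at -0.25 each (adjusted p = 0.123 and 0.140), and *vg* at 0.54 (adjusted p = 0.245). *Cf2* passed in DESeq2 (adjusted p = 0.0939). The median of the list was -0.080.

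Among cytoskeletal counterparts outside muscle the median was 0.0094 on the log2 scale, and edgeR called none of 9. *Act42A* alone passed an unadjusted p under 0.05, and it was also called by DESeq2. *Mbs*, a subunit of myosin phosphatase, was at -0.15, *tsr*, cofilin, at 0.16, and *Mlc-c*, a light chain of non-muscle myosin, at 0.096 (adjusted p = 0.342, 0.471 and 0.589, edgeR).

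**Figure D5:**
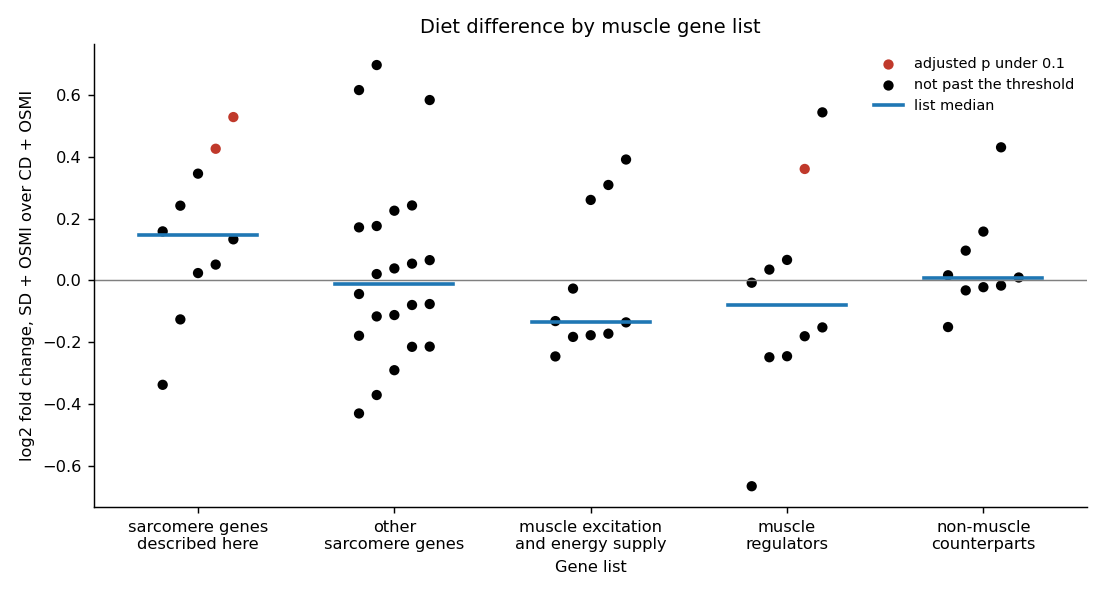
Log2 fold change, SD + OSMI over CD + OSMI, of each tested gene of the 10 sarcomere genes and of 4 further lists, with the list median as a blue line and genes with an adjusted p under 0.1 in red. The medians are 0.15 for the 10 genes and -0.012, -0.13, -0.080 and 0.0094 for the other lists, and the red points are *Act57B*, *wupA* and *bru1*.

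The mean pattern of the 10 genes across libraries, taken from their standardized log2 CPM, was -0.61, -1.12 and 0.64 on CD + OSMI and 0.058, 0.32 and 0.71 on SD + OSMI. In this mean, replicates 3 and 6 were high and replicate 2 low. The genes that make it up followed it unevenly. Pearson r was 0.97 for *up*, 0.95 for *Tm2*, 0.86 for *Mlc2*, 0.84 for *Mlc1* and 0.83 for *wupA*. It was 0.62 for *sls*, 0.58 for *Act57B*, 0.49 for *Mhc* and 0.47 for *bt*. Of 5014 genes with a mean of at least 20 CPM, those outside the muscle lists with the most similar pattern were *Tif-IA* (Pearson r = 0.99), *Cchl* (0.99), *Mp20* (0.97), *Idh3b* (0.97) and *CG1146* (0.96). *Tif-IA* is an initiation factor for RNA polymerase I, *Cchl* attaches heme to cytochrome c, *Mp20* is a calponin-like muscle protein and *Idh3b* is a subunit of isocitrate dehydrogenase. The r values of these 5 genes are the highest of many over only 6 libraries, which share the diets and their depth, and are given as a description. *Mp20* was at a log2 fold change of 0.39 (adjusted p = 0.154, edgeR), and none of the 5 was called.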

How the data were processed

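The authors lysed male heads, recovered FLAG-tagged ribosomes, made libraries with the Ovation SoLo system after ribosomal RNA depletion, and aligned reads to BDGP6 (dm6) with STAR. SAMtools 1.4 is named in the processing notes, and HTSeq made the counts. The deposited values were raw counts of 17489 genes in each of 6 files. The annotation release and the strand setting are not given in the sources used here. Symbols and coordinates came from the Ensembl annotation of BDGP6 for 17215 genes; 36 genes, among them *wupA*, were named from the study's gene table, and 238 had no symbol. Of 174 list entries, 3 matched no gene.

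A filter required at least 10 counts in 3 or more libraries. Tests were run in R 4.3.3 with edgeR 4.0.16 (TMM, robust quasi-likelihood F test, diet as the only term) at an adjusted p under 0.1. The study used DESeq2 for this comparison, at the same threshold, and DESeq2 is an alternative here. SEs are the log2 fold change divided by the square root of F. Practical equivalence used the SE of DESeq2 1.42.0 in a normal test against a change of 1.5-fold. TPM used merged exon lengths. Other alternatives were limma-voom (limma 3.58.1), other scalings, filters, thresholds and lengths, and each library left out. Scaling without mitochondrial genes and the length offsets were chosen after the data were seen. TMM factors were 0.956 to 1.04 and the common biological coefficient of variation was 0.150. Intervals for *Act88F* counts cover counting error only.

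Members and lists were chosen with earlier results of these data known. Genes named from a list are the 4 with the smallest p, except where chosen by value. The tests were run on simulated counts with the same spread for every gene and no trend by gene length. That setting is simpler than these data, so the check does not cover the length trend or the dependence on single libraries. Python 3.11.15 (matplotlib 3.10.9, numpy 2.4.6, pandas 2.3.3) drew the plots. Input libraries and flies without OSMI were not analysed here.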

Additional observations from a re-analysis of the deposited data

How the results depend on the processing

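Among the 10 sarcomere genes, *Act57B* was called in all alternatives, and 0 genes were lower in any. The count of higher genes was 2, fell to 1 (*Act57B*) at an adjusted p under 0.05, and was 1 to 3 when 1 library was left out. Over all genes, 823 were higher and 260 lower, 310 and 90 at an adjusted p under 0.05, and 45 to 1644 and 37 to 803 without 1 library, with the highest counts without replicate 4 and the lowest without replicate 6. Of the other sarcomere genes, 0 to 1 were higher without 1 library (*TpnC73F* without replicate 1 or 4, *Act87E* without replicate 3), and 1 with length offsets (*Msp300*, log2 fold change 0.25, adjusted p = 0.0401). With a narrower limit, 0 of the 10 genes were practically equivalent, with 2-fold 9, and without 1 library 4 to 8. Log2 fold changes that crossed 0 without 1 library ranged from -0.037 to 0.11 for *Mhc*, -0.053 to 0.18 for *Mlc2*, -1.13 to 0.47 for *Act88F* and -0.25 to 0.073 for *bt*, which was also 0.026 with length offsets. The causes were not tested. No paired analysis was possible because the labels number the replicates 1 to 3 on one diet and 4 to 6 on the other. At 11 to 89 counts per library, *Act88F* had the widest interval of the 10 genes.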
